A study of Mus musculus with 20 samples.

Results

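DNA methylation was compared between hematopoietic stem cells (HSCs) from mice given 4 cycles of 5-fluorouracil (5FU), labelled 4x, and HSCs from untreated mice, labelled 0x. The 4 samples of 4x (05, 06, 19 and 20) and the 4 of 0x (01, 02, 13 and 14) are 8 of the 20 samples of the series, whose other 12 are 6 samples each after 2 and 10 cycles (2x and 10x). Methylation was read by reduced representation bisulfite sequencing (RRBS) and deposited as 1 percentage per 100 bp bin and sample. Bins were kept where both groups varied and where no value other than 0 or 100 recurred exactly within a group, on autosomes. This left 202834 of the 1201951 deposited bins (16.9%). The cells carry the label C57BL/6 with no further allele. By the study's methods the mice were female, 3 months old at the start, and injected with 5FU once every 3 weeks, and HSCs were sorted from bone marrow 1 month after the last cycle, although the labels give the tissue as blood. The labels do not say that samples are separate mice, so a p-value here reflects the spread among these samples alone, and that spread may be technical.

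HSCs are mostly quiescent and give rise to all blood lineages. 5FU is an antimetabolite that kills dividing blood cells, after which the surviving stem cells divide to refill the marrow. Methyl groups sit on the cytosine of CpG dinucleotides in mammals. They are copied to the new strand after each division, so a lost or gained mark can persist in a cell's descendants. CpG-rich promoters are usually unmethylated, whereas isolated CpG sites in introns and between genes are usually methylated.

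A pair of 4x libraries stood apart in the deposited values. In 4x 05 the promoter bins of chromosome X averaged 41.0%, against 47.5 to 50.6% in the other 19 samples, whereas its X bins outside promoters (87.3%) and its autosomal promoter bins (28.6%) lay within the range of the others. In 4x 06 only 16.5% of values in the kept bins were exactly 0 or 100, against 38.1 to 57.3% in the other 7 samples. Bins missing in a sample had been given a group level before deposit and are not marked. A group held a single value throughout in 73.0% of the deposited autosomal bins in 0x and in 65.9% in 4x, and such bins were left out here. Per the study's methods each bin had to pass a coverage minimum, but the number of reads behind a value is unknown, so no counting interval or limit of detection can be given.

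After adjustment, 7 bins differed between 4x and 0x by at least 10 percentage points. Their sequences are shown because these bins carry the comparison. They are read from the plus strand of RefSeq GRCm38.p6 (the assembly of mm10) from 5′ to 3′, with the CpG sites, where methylation is read, in capitals.
Sla bin, chr15:66801000-66801099: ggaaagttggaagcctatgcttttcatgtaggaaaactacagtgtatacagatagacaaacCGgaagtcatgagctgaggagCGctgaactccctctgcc
Ptges bin, chr2:30902600-30902699: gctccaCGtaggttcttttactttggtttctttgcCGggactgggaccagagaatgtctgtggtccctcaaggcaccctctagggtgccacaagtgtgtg
Gm41918 bin, chr1:90754200-90754299: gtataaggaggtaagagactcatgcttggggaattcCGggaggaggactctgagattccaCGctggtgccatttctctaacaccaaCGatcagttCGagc
Pcdh7 bin, chr5:57720600-57720699: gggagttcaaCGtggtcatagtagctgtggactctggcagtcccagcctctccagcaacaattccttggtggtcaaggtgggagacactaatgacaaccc
Eif3g bin, chr9:20902200-20902299: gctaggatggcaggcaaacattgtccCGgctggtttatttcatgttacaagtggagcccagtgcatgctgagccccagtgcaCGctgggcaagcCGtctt
Itpkc bin, chr7:27227600-27227699: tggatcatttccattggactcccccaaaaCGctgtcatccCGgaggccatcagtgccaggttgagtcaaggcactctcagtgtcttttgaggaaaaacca
Twist2 bin, chr1:91799800-91799899: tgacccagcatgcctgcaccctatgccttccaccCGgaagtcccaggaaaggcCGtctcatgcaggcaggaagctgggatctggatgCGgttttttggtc
The bins held between 1 and 4 CpG sites. The Sla bin lies in an intron of Sla, 2798 bp downstream of a transcription start site (TSS), and also within Tg, which overlaps it. The Ptges bin lies in an intron of Ptges, 647 bp from one of its TSSs and 605 bp upstream of the TSS of the long non-coding RNA Gm52550. The Gm41918 bin is intergenic, and that predicted gene, 9764 bp away, is only its nearest neighbour. The Pcdh7 bin is coding sequence 2569 bp into the gene. The Eif3g bin is intergenic, 3660 bp upstream of the TSS. The Itpkc bin is coding sequence 967 bp downstream of the TSS and is counted as promoter here, where a promoter is the 1 kb on either side of a TSS. The Twist2 bin is intergenic, 1611 bp upstream of the TSS.

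Methylation rose in 4 of these bins and fell in 3 (limma, adjusted p under 0.05 and at least 10 points). These are 0.00197% and 0.00148% of the bins tested. In the Sla bin, in the gene of a Src-like adaptor that dampens antigen receptor signalling, the 0x samples 01, 02, 13 and 14 were at 1.67, 0, 6.06 and 0%. The 4x samples 05, 06, 19 and 20 were at 95.1, 92.6, 100 and 100%. Each 4x sample was thus almost fully methylated where each 0x sample was almost unmethylated, a difference of 94.997 ± 2.66 points (SE, adjusted p = 0.000459 from limma). In the Ptges bin, in the gene of prostaglandin E synthase, 0x 14 held 3.12% and the other 0x samples 0%. In 4x the samples were at 69.5, 49.0, 60.1 and 60.5%, in the same order as above. The lowest 4x sample was far above the highest 0x sample, and the difference of 59.0 ± 4.20 points was the one nearest to the threshold (adjusted p = 0.0494 from limma).

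In the bin near Gm41918, 0x was at 33.3, 33.6, 44.6 and 36.0%. All 4 samples of 4x lay close to full methylation there, at 91.3, 94.6, 91.6 and 89.3% (difference 54.8 ± 3.07 points, SE, adjusted p = 0.0106 from limma). The coding bin of Pcdh7, a protocadherin that joins cells to each other, held 0, 2.60, 4.00 and 0% in 0x. The 4x samples were nearly identical at 53.1, 52.2, 53.3 and 54.8%, so the groups were separated by 51.7 ± 1.90 points (SE, adjusted p = 0.00106 from limma). This bin has a single CpG site.

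Of the bins that fell, the one near Twist2, the gene of a transcriptional repressor with a helix-loop-helix domain, was at 95.7% in 0x 01 and at 100% in the other 3 samples of 0x. In 4x it was at 15.4, 4.55, 17.2 and 12.4%. The loss was close to complete in every 4x sample, by the difference of -86.5 ± 3.17 points (SE, adjusted p = 0.00106 from limma). The Itpkc bin, in the gene of a kinase of inositol trisphosphate, was at 91.4% in 0x 13 and at 100% in the others. Its 4x values were 44.6, 37.4, 40.1 and 45.9%. The bin near Eif3g, the gene of a subunit of translation initiation factor eIF3, was at 98.8% in 0x 13 and 100% in the others, against 49.4, 47.8, 46.2 and 55.1% in 4x. Both of these bins thus went from full to intermediate methylation, by the differences of -55.8 ± 3.11 and -50.1 ± 2.40 points (SE, adjusted p = 0.0106 and 0.00529 from limma).

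**Figure D1:**
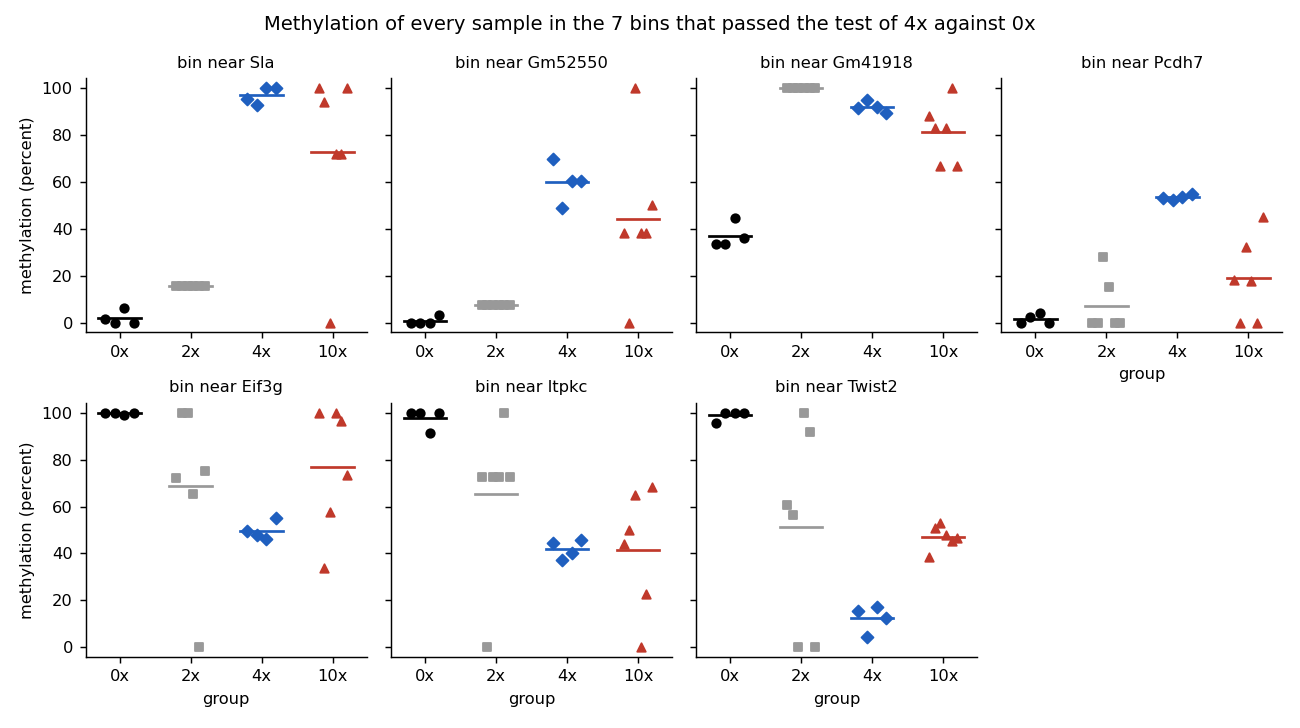
Methylation in percent (y axis) of every sample in the 7 bins, by group (x axis). Points are samples and horizontal lines are group means. The 4 samples of 0x and the 4 of 4x do not overlap in any panel. The 2x and 10x samples, 6 each, are shown for comparison, and rows of equal points there are repeated values.

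The calls near Sla, Pcdh7, Eif3g and Twist2 held without any one of the 8 samples. That near Gm41918 was lost without 0x 02 or the 4x samples 05, 19 or 20, and that of Itpkc without 0x 02 or the 4x samples 19 or 20. The Ptges bin's call was lost without any one of the 4 samples of 0x or the 4x samples 19 or 20. The adjusted p over these fits reached 0.0697, 0.0666 and 0.19, in the order just given (limma). Leaving out a sample moved the number of called bins to 20, 25 and 16 without the 0x samples 01, 13 and 14, and to 12 and 17 without the 4x samples 05 and 06. With the label series as a block the calls of the bins near Gm41918, Ptges and Itpkc were lost, and a spread estimated over 0x, 4x and the other groups together lost those near Eif3g, Twist2, Itpkc and Ptges. No bin was called on a log2 ratio of the percents or with a variance trend in limma.

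In the other treated groups these bins did not form one pattern. The comparisons of 2x and 10x use the same 0x samples, so only their levels are given. At Sla the 10x samples averaged 72.8% ± 38.0 (SD, n = 6), with 1 sample at 0 and a value that recurs in a pair of samples, and at Ptges 44.0% ± 32.3. All 6 samples of 2x held 1 repeated value there, 15.4% at Sla and 7.69% at Ptges, and 100% near Gm41918. Near Twist2 the 10x samples lay together at 47.0% ± 4.99, whereas 2x ran from 0 to 100%. At Pcdh7, 2x and 10x averaged 7.21% ± 11.9 and 18.9% ± 17.8, below every 4x sample in each of their samples.

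The differences did not extend evenly over neighbouring DNA. Within 500 bp of the called bins, 26 other bins were deposited, 8 of them among the kept bins. At Sla the 2 neighbours differed by -4.51 and 0 points. They were at 99.9 and 100% in 0x and at 95.4 and 100% in 4x. The called bin thus stood apart from them in 0x and lay near their level in 4x. Around Ptges the 5 neighbours ran from -5.41 to 24.3 points, with a median of 1.79. The 7 neighbours of the Itpkc bin ran from -37.3 to 50 points, with a median of 15.2, opposite in direction to the called bin. The 50 points came from a bin in which all 0x samples held 50% and all 4x samples 100%. The single neighbour near Gm41918 differed by 33.004 points, in the direction of the called bin, and the 2 near Eif3g by -5.64 and 23.3. In the first and in the lower of the latter all 0x samples held 1 value. Near Twist2, 3 neighbours lay between -0.946 and 13.3 points, and around Pcdh7, 6 neighbours between -3.29 and 14.5.

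Over all kept bins, HSCs after 4 cycles of 5FU were slightly more methylated than untreated HSCs. The mean was 56.5, 55.1, 54.7 and 55.0% in 0x 01, 02, 13 and 14 and 56.6, 56.7, 56.6 and 56.8% in 4x 05, 06, 19 and 20. All 4x samples lay above all 0x samples, but 0x 01 at 56.5% came close to the lowest 4x sample at 56.6%. The groups averaged 55.3% ± 0.787 (SD, n = 4) and 56.7% ± 0.0931 (SD, n = 4), a difference of 1.33 ± 0.396 points (SE, two-sided exact permutation test, p = 0.0286, and 4 against 4 samples allow no smaller one). Without 4x 05 or 4x 06 the difference was 1.36 and 1.32 points (exact permutation, p = 0.0571 each). It was 1.36 and 1.30 points without the 4x samples 19 and 20 (exact permutation, p = 0.0571 each). In bins without repeated values in any of the 4 groups it was 0.864 points (exact permutation, p = 0.0857). The samples numbered up to 12 differed by 0.838 points and those numbered from 13 by 1.83 points, each 2 against 2 (exact permutation, p = 0.333, the smallest possible). Over all deposited autosomal bins, filled ones included, the difference was 0.480 points (exact permutation, p = 0.0286). Each of the 19 autosomes had the higher mean in 4x, by 1.19 to 1.52 points.

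In the kept bins this difference was larger outside promoters. In intergenic bins the means were 75.4% ± 1.11 in 0x and 77.6% ± 0.197 in 4x (SD, n = 4 each), a difference of 2.13 points, and in introns 73.4% ± 1.01 and 75.4% ± 0.225, a difference of 1.97 points. The 3′ UTR bins differed by 1.96 points and the bins at transcription termination sites (TTS) by 1.80. In these 4 classes all 4x samples lay above all 0x samples, with an exact permutation p of 0.0286 each that became 0.0571 after adjustment over the 8 classes. None of the 8 classes passed, and without 0x 01 these 4 classes and coding exons did (exact permutation, adjusted p = 0.0457). Coding exons differed by 1.12 points, non-coding exons by 1.56 and 5′ UTRs by 0.725 (exact permutation, p = 0.0857, 0.0571 and 0.457).

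Promoter bins overlapped between the groups. They stood at 16.5, 16.1, 15.8 and 16.01% in 0x and at 16.2, 16.5, 15.96 and 15.9% in 4x, so the means lay 0.0243 ± 0.194 points apart (SE, exact permutation, p = 0.886). Its sign turned to -0.0766 points with chromosome X included, where 4x 05 stood apart, and to -0.0755, -0.0127, -0.00219 and -0.0830 points without the 0x samples 13 and 14 and the 4x samples 05 and 06. The gap between intergenic and promoter methylation was wider in the kept bins in each sample of 4x than in each of 0x, by 2.11 ± 0.471 points (SE, exact permutation, p = 0.0286), and that between introns and promoters by 1.94 ± 0.421 points (exact permutation, p = 0.0286). Over all deposited autosomal bins the classes lay closer together, with differences of 0.523 points in intergenic bins, 0.528 in introns and 0.258 in promoters (exact permutation, p = 0.0571, 0.0286 and 0.0857), and the difference between classes was not tested there.

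**Figure D2:**
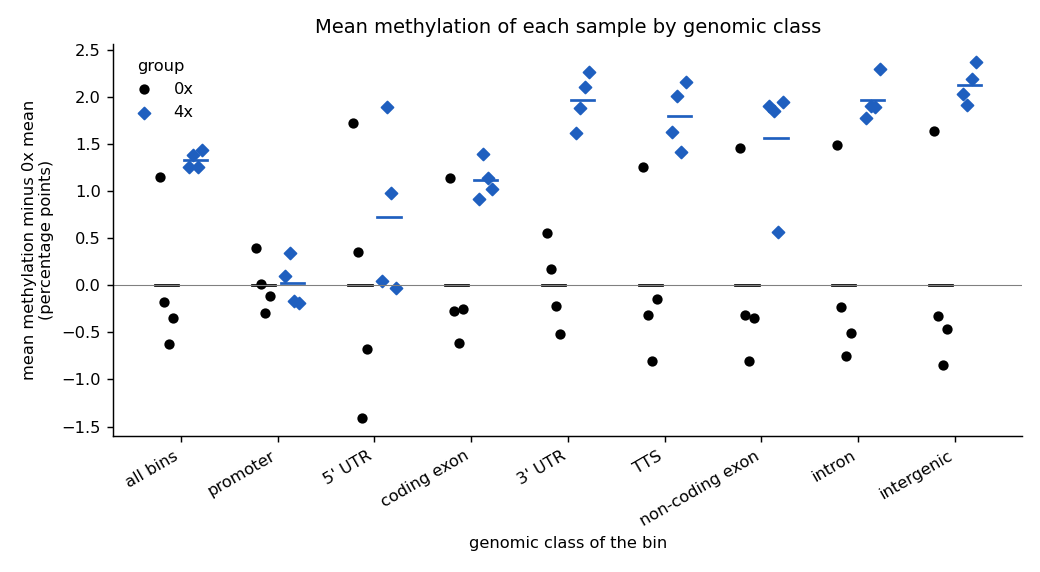
Mean methylation of each sample minus the 0x mean in percentage points (y axis), for all kept bins and for 8 genomic classes (x axis). Points are samples (n = 4 in each group) and short lines are group means. In introns and intergenic bins every 4x sample lies above every 0x sample, with 0x 01 the nearest, whereas in promoters the groups overlap.

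The difference grew with distance from a TSS and shrank with CpG number. It was -0.0502 points in bins up to 500 bp from a TSS, 0.291 between 500 bp and 1 kb, 1.48 between 1 and 5 kb and 1.98 between 5 and 20 kb, and 2.13 to 2.21 in the 3 strata beyond 20 kb. None of the 7 distance strata passed (exact permutation, lowest adjusted p = 0.0667). Bins with at most 1 CpG site differed by 2.54 ± 0.729 points (SE), those with 2 by 2.12 ± 0.562 and those with 3 or 4 by 1.54 ± 0.458. These 3 strata passed (exact permutation, adjusted p = 0.0476 over 5 strata, no overlap between the groups). Their unadjusted p of 0.0286 (exact permutation) is the smallest possible, and distance strata from 5 to 200 kb had the same one. Which of them passed thus depends on the number of strata adjusted for. Bins with 5 to 7 sites differed by 0.594 points and those with 8 or more by -0.186 (exact permutation, p = 0.114 and 0.0857). Outside promoters the same order held, from 2.62 points at 1 site or none through 2.27, 1.83 and 1.04 to 0.143 points at 8 or more.

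Bins were also sorted by their mean level in the 2x and 10x samples, which take no part in the comparison. Both are treated groups like 4x, so this sorting is not neutral between 4x and 0x. In bins under 5% the 0x samples were at 3.51 to 3.72% and the 4x samples at 3.11 to 3.24%. The groups did not overlap, with 4x lower by the difference of -0.462 points (exact permutation, p = 0.0286, adjusted 0.0571 over 6 strata). Between 80 and 95% 4x was 2.46 points higher, and from 95% upwards 2.19 points higher, again without overlap (exact permutation, adjusted p = 0.0571 each). In the 50 to 80% stratum the difference was 2.69 points (exact permutation, p = 0.0571), with 0x 01 at 68.8% above the lowest 4x sample at 68.5%.

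**Figure D3:**
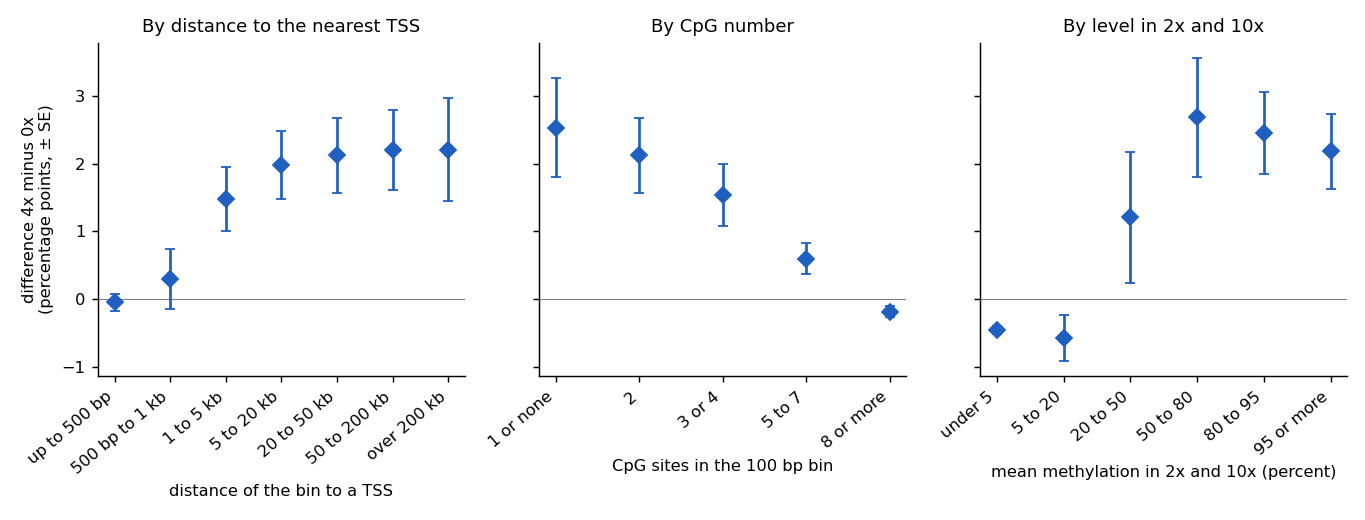
Difference in mean methylation, 4x minus 0x, in percentage points (y axes, ± SE from the spread of the 8 samples) by distance to the nearest TSS, by number of CpG sites in the bin and by mean level in the 2x and 10x samples (x axes). The difference is -0.0502 points nearest to a TSS and 2.21 points farthest from it, 2.54 points at most 1 CpG site and -0.186 points at 8 or more, and -0.462 points in bins under 5% and 2.19 points in bins at 95% or more.

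Bins that differed before adjustment were more often higher than lower in 4x. At an unadjusted p under 0.05 and at least 10 points, 3800 bins were higher (1.87% of those tested) and 2290 lower (1.13%), so 62.4% of them were higher. Without a minimum difference 6837 bins (3.37%) had such a p, fewer than the 5% that the threshold itself allows. Among intergenic bins 2.37% were higher and 1.29% lower, and among introns 2.28% and 1.38%. Promoter bins were at 0.98% and 0.726%. Bins at 3′ UTRs were at 2.81% and 1.25%.

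The promoters of 4 genes passed the test, of 18901 with a kept bin within 1 kb of a TSS. The promoters of Ptges and Gm52550, which share their 2 bins, and of the long non-coding RNA Gm6994 rose (0.0159% of promoters), and that of the long non-coding RNA Gm36839 fell (0.00529%). For Ptges the 0x samples were at 3.30, 2.94, 3.42 and 1.56% and the 4x samples at 40.7, 31.9, 30.1 and 30.2%. The groups were far apart, by 30.4 ± 2.46 points (SE, adjusted p = 0.0179 from limma), and 4x 05 was the highest. Nearly all of this difference came from the bin shown above. The other Ptges bin, 147 bp from the TSS in coding sequence, had 4 CpG sites and differed by 1.79 points. It is shown to set it beside the first, in the same form.
Ptges bin, chr2:30903100-30903199: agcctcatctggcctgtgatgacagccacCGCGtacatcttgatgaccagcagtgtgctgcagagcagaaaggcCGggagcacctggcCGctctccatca
At Gm6994 a single bin held 70.8, 74.8, 72.7 and 73.9% in 0x and 100, 93.0, 95.5 and 100% in 4x, a difference of 24.0 ± 1.95 points (SE, adjusted p = 0.0179 from limma). Every 4x sample was thus near full methylation and above every 0x sample. Gm36839 had 3 bins, with a mean of 33.4, 30.8, 28.2 and 27.5% in 0x and of 8.03, 4.57, 0 and 3.78% in 4x, lower by the difference of -25.9 ± 2.10 points (SE, adjusted p = 0.0179 from limma). Its 2 lower bins differed by -32.3 and -51.5 points and ranged in 0x from 0 to 58.6% and from 33.9 to 100%, so the even mean of the 0x samples hides uneven bins. All 3 bins also count to Prpf4b, the gene of a kinase of the splicing machinery, whose promoter of 4 bins did not pass (-19.6 points, adjusted p = 0.089 from limma).

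The promoter calls were less stable than those of the bins. No promoter was called when 01, 02 or 14 of 0x or 06, 19 or 20 of 4x was left out, only Trim32, which is none of the 4 above, was called without 0x 13 (51.4 points, adjusted p = 0.0103 from limma), and without 4x 05 the call of Gm6994 was lost while Ptges, Gm52550, Gm36839 and Cdkl4 were called. With a spread shared by all 4 groups Ptges, Gm52550 and Gm6994 were not called, and with the label series as a block Gm6994 was not. Gm6994 passed in none of the fits without 1 sample, with an adjusted p of 0.0554 to 0.123, and Ptges reached 0.142 (limma). The direction of the 4 promoters was the same in all alternatives run. At an unadjusted p under 0.05, 399 promoters were higher (2.11%) and 339 lower (1.79%), and over all promoters the median difference was -0.138 points.

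The largest promoter differences were in promoters with a single bin, and none of those named in this paragraph passed (adjusted p of 0.133 to 0.97, limma). They were taken as the 8 largest in each direction among promoters with an unadjusted p under 0.05 and groups that did not overlap, which 2.36% of all promoters show. At Col1a1, the gene of a chain of type I collagen, 0x was at 0, 23.1, 0 and 3.90% and 4x at 70, 55.6, 59.2 and 50%. The bin lies 74 bp from the TSS and has 4 CpG sites.
Col1a1 bin, chr11:94936100-94936199: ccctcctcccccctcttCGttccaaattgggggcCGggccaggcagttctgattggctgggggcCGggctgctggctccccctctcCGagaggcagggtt
The lowest 4x sample there was well above the highest 0x sample, and the difference was 51.9 ± 6.36 points (SE, adjusted p = 0.133 from limma). At Inpp5j, the gene of an inositol polyphosphate phosphatase, 0x was spread over 23.8, 49.5, 72.4 and 47.4%, whereas 4x was at 95.7, 100, 98.3 and 100%. Abcb8, the gene of a mitochondrial transporter, averaged 13.5% ± 18.6 in 0x and 64.1% ± 8.53 in 4x (SD, n = 4 each). Fgl2, the gene of a fibrinogen-like protein, averaged 26.4% ± 17.7 and 77.2% ± 27.8. The other increases were at the small nuclear RNA Gm26295 (60.8 points), Gm46116 (51.1 points) and the pair C130050O18Rik and 3110082I17Rik, which share 1 bin (48.8 points). At Gm46116 the value of 0x 14, 10.9%, equals the mean of the other 3 samples of 0x.

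Of the decreases that did not pass, Tnr, the gene of the matrix protein tenascin R, held 45.8, 63.8, 97.4 and 100% in 0x and 0, 38.8, 10.2 and 36.8% in 4x, a difference of -55.3 points. Both groups were widely spread, though they did not overlap. Asphd1 averaged 55.6% ± 30.4 in 0x and 4.57% ± 5.84 in 4x, and Fbxw9, the gene of an F-box protein that shares its bin with A230103J11Rik, 64.9% ± 25.8 and 14.9% ± 10.49 (SD, n = 4 each). The remaining decreases were in the long non-coding RNAs Lncbate6, Gm34084 and Gm36008 and the small nucleolar RNA Gm24286, with differences of -61.5, -57.4, -50.5 and -53.8 points.

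**Figure D4:**
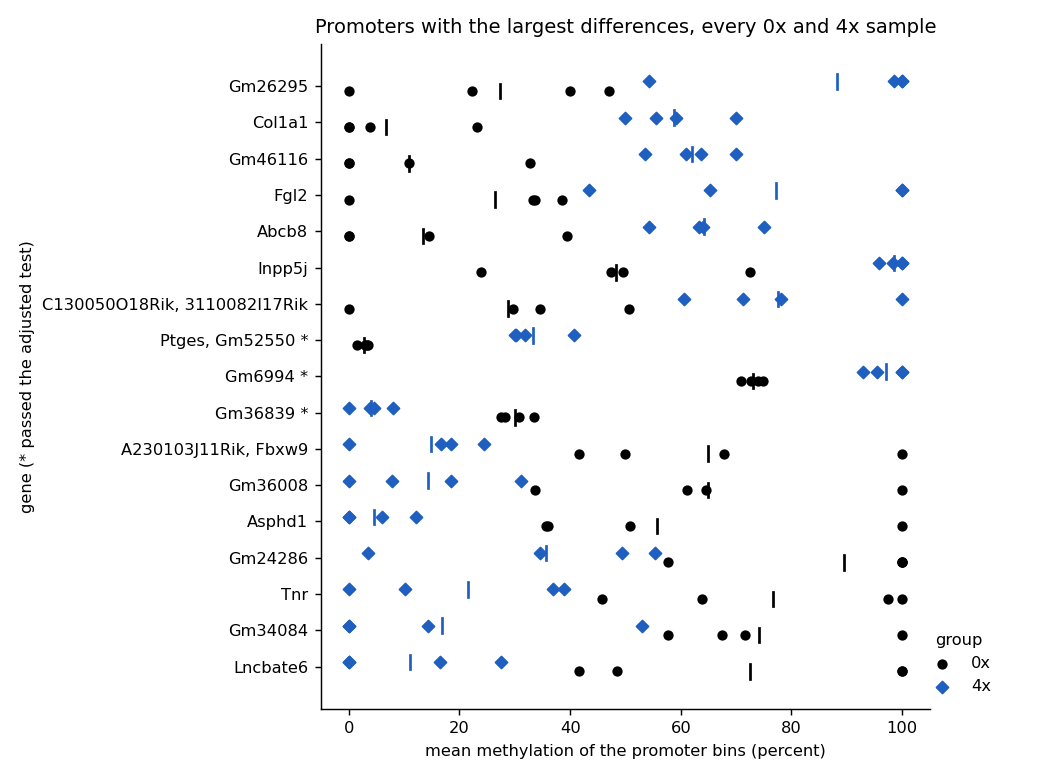
Mean methylation of the promoter bins in percent (x axis) for the promoters with the largest differences (y axis), ordered by difference. Points are the 4 samples of 0x and the 4 of 4x, and short vertical lines are group means. The promoters that passed the adjusted test, marked with an asterisk, have tight groups, whereas the larger differences above and below them have widely spread samples.

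No region of 3 or more neighbouring kept bins passed, out of 17196 (0% called, lowest adjusted p = 0.291 from limma). The count was also 0 with a variance trend and on a log2 ratio, and 1 without 0x 13. Before adjustment 506 regions (2.94%) were higher and 297 (1.73%) lower at p under 0.05. The increase with the lowest p covered 4 bins at the promoter of Ramp2, which encodes a partner of the calcitonin receptor-like receptor. It was at 1.89, 0.595, 10.1 and 7.04% in 0x and at 29.5, 26.8, 25.2 and 26.4% in 4x. Among the largest differences, 3 bins in the coding sequence of Il4ra, the interleukin 4 receptor, averaged 52.2% ± 16.96 and 90.0% ± 7.47, and 3 bins at the promoter of Ppp1r1b 24.8% ± 11.2 and 61.6% ± 11.1 (SD, n = 4 each). An intergenic region 6816 bp from Six3, a homeobox gene of eye and forebrain, averaged 50.7% ± 14.3 and 13.03% ± 9.66. The region near Twist2, of 3 kept bins with the called one among them, averaged 53.3% ± 18.5 and 28.3% ± 4.84. Its other 2 bins differed by -0.946 and 12.4 points, so the loss there rested on the called bin.

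Gene lists of stem cell function held no promoter that passed. In the counts over lists, a promoter is higher or lower at an unadjusted p under 0.05, and a bin where it also differs by at least 10 points. Over all promoters 2.11% were higher and 1.79% lower, and these shares stand beside each promoter count below. Among 11 promoters of HSC surface markers, 2 were higher (Flt3 and Cd48) and none lower, with a median difference of 3.09 points, against -0.138 over all promoters. Cd48, which is absent from the surface of HSCs, had 1 bin at 40.4, 0, 0 and 29.9% in 0x and at 35.5, 75.0, 66.7 and 100% in 4x, so its groups overlapped. Flt3, the receptor kinase that marks the exit from the stem cell state, had 5 promoter bins with a mean of 45.5, 40, 35.3 and 38.8% in 0x and 56.0, 48.9, 54.3 and 51.3% in 4x. The groups did not overlap, but the difference of 12.7 ± 2.54 points did not pass (SE, adjusted p = 0.586 from limma). It came mainly from the bin 761 bp from a TSS, which held 23.9, 0, 0 and 0% in 0x and 81.5, 47.1, 64.7 and 52.6% in 4x. Of the other 4 bins, 2 were near 0 in both groups. The remaining 2 averaged 93.0 and 98.1% in 0x and 99.6 and 97.9% in 4x, with 0x 13 at 71.8% in the former. The 5 bins lie by different TSSs of the gene, between positions 147361000 and 147401299 of chromosome 5. The sequence of the bin with the difference is given because Flt3 is among the genes the study named.
Flt3 bin, chr5:147401200-147401299: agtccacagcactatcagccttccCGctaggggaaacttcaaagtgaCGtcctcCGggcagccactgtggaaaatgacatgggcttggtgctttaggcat
Of 15 promoters of HSC transcription factors, 1 was lower and none higher. Lyl1, a basic helix-loop-helix factor of stem cells, averaged 5.23% ± 0.956 in 0x and 1.75% ± 1.39 in 4x. The bins in and around these genes were split, with 5 of 330 higher and 8 lower (1.52 and 2.42%, against 1.61 and 1.04% of the bins of all genes with a tested promoter). The 18 self-renewal and quiescence genes had 8 of 219 bins higher (3.65%) and none lower.

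Single bins inside these genes showed large differences that did not pass. All single bins named for a gene list were picked after their values were seen. At Nr4a2, the gene of an immediate early nuclear receptor, 3 bins lay 2304 to 2804 bp from a TSS. The farthest of them, in an intron, held 0, 16.4, 19.4 and 14.4% in 0x and 73.9, 66.4, 64.3 and 37.5% in 4x. The other pair had 0x means of 7.01 and 17.5% against 4x means of 34.7 and 37.1%. In the latter bin 0x 02 at 24.4% lay just under 4x 19 at 24.5%. In introns of Erg, an ETS factor needed for HSC maintenance, a pair of bins averaged 90.2% ± 11.7 and 83.0% ± 13.6 in 0x and 25.4% ± 33.8 and 28.5% ± 19.04 in 4x. Intron bins of Hlf and Kit, a stem cell transcription factor and the receptor of stem cell factor, were at 45.9% ± 32.1 and 72.8% ± 19.2 in 0x and at 97.8% ± 4.39 and 98.2% ± 3.68 in 4x.

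No promoter or bin of the lineage genes passed. In 14 B lymphoid genes 8 of 158 bins were higher (5.06%) and 1 lower, 2 of them in introns of Pax5, the B cell commitment factor, where the 0x means of 45.0 and 29.9% stood against 4x means of 87.7 and 72.5%. None of their 8 promoters had an unadjusted p under 0.05. In 14 T lymphoid genes 5 of 199 bins were higher and 7 lower (2.51 and 3.52%). Of their 7 promoters 2 were lower, against 1.79% of all promoters, each with overlapping groups. They were Gata3 (19.4% ± 6.16 and 7.23% ± 6.30) and Cd2 (96.3% ± 7.45 and 83.0% ± 5.55). Bcl11b, the T cell commitment factor, had an intron bin at 100, 46.7, 100 and 70.5% in 0x and at 20.5, 0, 16.2 and 31.4% in 4x. Myeloid genes had 1 of 86 bins higher and none lower, and erythroid and megakaryocyte genes 2 of 82 in each direction. Their tested promoters, 9 and 7, held none with an unadjusted p under 0.05.

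**Figure D5:**
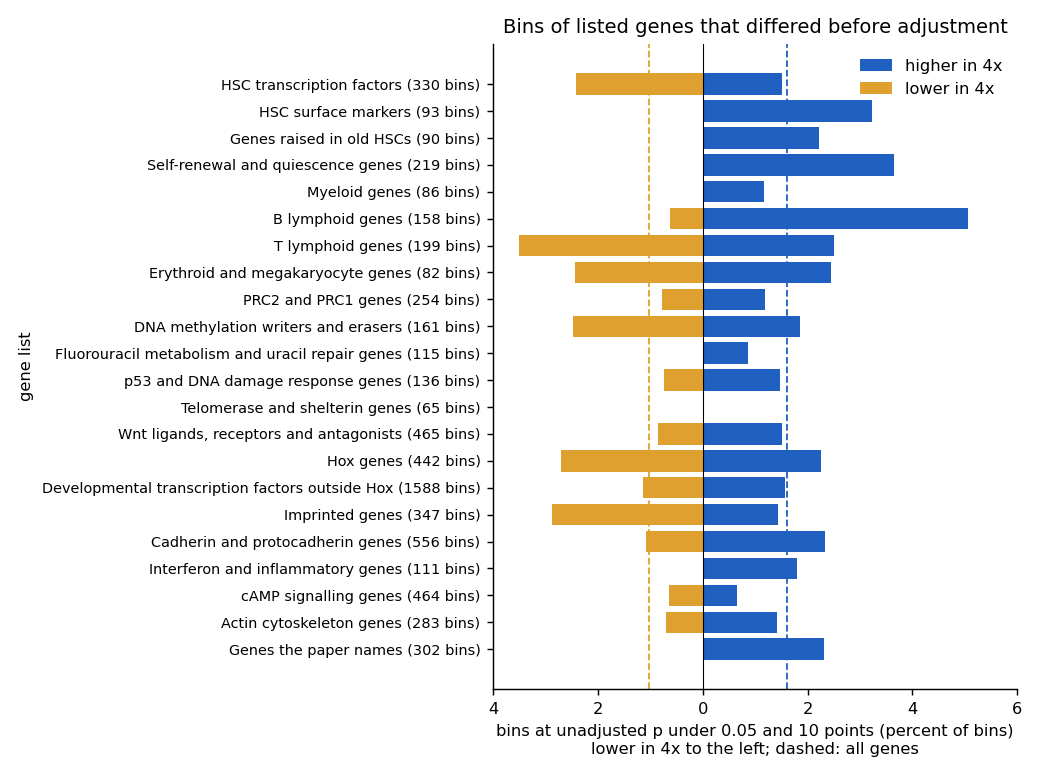
Share of the bins in and around the genes of each list that were at an unadjusted p under 0.05 and at least 10 points (x axis, percent of the list's bins), higher in 4x to the right and lower to the left, for 22 gene lists (y axis). Dashed lines give the shares over the bins of all genes with a tested promoter, 1.61% higher and 1.04% lower. B lymphoid genes have the highest share of higher bins and T lymphoid genes that of lower bins, and the shares of short lists rest on a few bins.

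No promoter of the developmental genes passed. Hox genes, which set position along the body axis and include self-renewal factors of HSCs, had 10 of 442 bins higher and 12 lower (2.26 and 2.71%). Of their 37 promoters none was higher and 1 lower, Hoxd10, at 17.2% ± 0.916 in 0x and 13.3% ± 2.98 in 4x, with overlapping groups. At Hoxa3 an intron bin stood at 74.8, 60.4, 61.7 and 58.6% in 0x and at 98.9 to 100% in 4x, and at Hoxa5 a promoter bin averaged 75.3% ± 28.6 and 21.9% ± 16.8. Of 82 promoters of other developmental transcription factors, 3 were higher and 2 lower. Neurog1, a proneural factor, averaged 5.58% ± 1.99 and 12.1% ± 4.76, Lhx4, a LIM homeobox factor, 5.91% ± 1.10 and 2.61% ± 1.28, and Pax3 5.74% ± 1.46 and 2.995% ± 0.992 (0x and 4x, SD, n = 4 each). The others were Tbx20 and Irx1, higher by 4.30 and 2.76 points with overlapping groups. None of the 5 passed (adjusted p = 0.97 each, limma).

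Polycomb and imprinted genes gave no call either. The 23 promoters of PRC1 and PRC2 genes, which silence developmental genes through histone marks, held none at an unadjusted p under 0.05, with Ezh2 and Suz12 at 1.78 and 2.79% in 0x and 2.32 and 1.71% in 4x. The 30 promoters of imprinted genes, which are methylated on 1 parental copy, were at a median of 44.7% in 0x and 47.1% in 4x, with 1 higher and 1 lower. Kcnq1ot1, the non-coding RNA of the Kcnq1 imprinted domain, held 0, 6.57, 0 and 0% in 0x and 39.4, 84.1, 0 and 50% in 4x, so that 4x 19 fell among the 0x samples. Peg12 averaged 35.3% ± 2.25 and 27.2% ± 6.52, with overlapping groups. Of the list's bins 1.44% were higher and 2.88% lower, with a median difference of 2.34 points against 0.254 over the bins of all genes. In the cadherin and protocadherin list 13 of 556 bins were higher and 6 lower, and 1 was called, the Pcdh7 bin. Of its 16 promoters Cdh1, the gene of E-cadherin, was higher, at 3.89% ± 2.96 and 10.9% ± 5.35 with overlapping groups, and none was lower.

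Among 16 promoters of genes that write, read or erase DNA methylation, 12 were higher in 4x by any amount, against 8986 of all 18901 promoters (47.5%), and 1 was lower at an unadjusted p under 0.05, against 1.79% of all promoters. That was Uhrf1, which guides the maintenance methyltransferase to newly copied DNA, at 21.9, 26.9, 28.0 and 40% in 0x and at 14.6, 21.6, 19.9 and 12.1% in 4x. The highest 4x sample lay just under the lowest 0x sample (-12.2 ± 4.10 points, SE, adjusted p = 0.97 from limma). Of 15 promoters of fluorouracil metabolism and uracil repair genes, 2 were higher and 1 lower, against 2.11% and 1.79% of all promoters. Their median difference was -2.30 points, against -0.138 over all promoters. Dpys, the next enzyme of pyrimidine breakdown after Dpyd, averaged 43.7% ± 33.01 and 83.3% ± 16.1 in 0x and 4x, with overlapping groups. Dpyd, the enzyme that degrades 5FU, averaged 8.85% ± 2.61 in 0x and 3.12% ± 1.86 in 4x. Of 21 promoters of p53 and DNA damage genes, 1 was higher, Mdm2, the ubiquitin ligase of p53, at 6.45% ± 1.58 and 11.04% ± 2.93, and 1 lower (SD, n = 4 each). Telomerase and shelterin genes held no such promoter among 13 and no such bin among 65.

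No promoter of the signalling lists passed. In the cAMP list Adcy3, an adenylate cyclase, averaged 20.7% ± 4.32 in 0x and 9.23% ± 3.32 in 4x, and Pde4c, a cAMP phosphodiesterase, 63.8% ± 5.89 and 76.2% ± 5.92 (SD, n = 4 each). They were the only 2 of 29 promoters at an unadjusted p under 0.05, and 0.647% of the list's bins were higher and 0.647% lower. Of 37 promoters of Wnt ligands, receptors and antagonists 1 was lower, the ligand gene Wnt10b, at 9.07% ± 0.786 and 4.43% ± 2.998. Actin cytoskeleton genes had 1 of 28 promoters higher (Arpc1b, by 5.04 points with overlapping groups) and none lower. Only 17 of 26 interferon and inflammatory genes and 8 of 18 genes raised in old HSCs had a tested promoter. None of these promoters was higher or lower. Of the bins of these lists, 2 of 111 (1.80%) and 2 of 90 (2.22%) were higher and none lower.

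A list of 28 genes that the study names had 24 with a tested promoter, and genes on chromosome X were not tested. Some of the 28 were picked by the study for their methylation in these samples, so their directions are not independent evidence, and others were named as regulators or as a surface marker. In the kept bins Flt3 was the only one at an unadjusted p under 0.05. Of the list's 302 bins 7 were higher (2.32%) and none lower, against 1.61 and 1.04% of the bins of all genes. Cebpe, Pou5f1, Cdkn2a, Pparg, Stat5a, Wnt1, Nos2, Bcl6, Ezh2, Wnt5a, Cdkn1b and Wnt7a had 4x means above 0x, by 0.229 to 4.61 points. Rara, Grb2, Klf4, Suz12, Eif4ebp1, Terc, Itga3, Wnt3a, Runx1, Tert and Il3 had 4x means below those of 0x, with differences from -0.0524 to -22.2 points. The sign turned on leaving out 1 sample for Bcl6, Cdkn1b, Ezh2, Grb2, Klf4, Pou5f1, Rara, Runx1, Stat5a, Wnt5a and Wnt7a. Il3, the gene of interleukin 3, had the widest spread, at 57.1, 100, 100 and 100% in 0x and 75.3, 92.8, 66.7 and 33.3% in 4x, so the groups overlapped. Tert, the catalytic subunit of telomerase, averaged 13.9% ± 5.85 and 7.40% ± 3.96 (SD, n = 4 each). Bcl2a1d, Bcl2a1b, Nanog and Slamf1 had no kept promoter bin and were not tested. Flt3, Terc, Tert and Wnt3a kept their sign in all alternatives, and each came out stronger in 1 of them. Some other genes of the list turned in sign and passed with all deposited bins, filled ones included. Of them, Grb2 and Il3 were higher in 4x there, by 4.36 and 29.2 points. Nos2 and Wnt7a were lower there, with differences of -18.0 and -8.14 points (limma, adjusted p under 0.05 for all of these). The study, using these samples, reports hypermethylation at Grb2 and Il3 and hypomethylation at Nos2 and Wnt7a. In the kept bins these genes had the opposite direction, as did Rara and Eif4ebp1, which it reports as hypermethylated. So did Cdkn2a, Pparg, Wnt1, Wnt5a and Cdkn1b, which it reports as hypomethylated. The direction was that of the study for Flt3, Cebpe and Stat5a (higher) and for Tert, Terc, Itga3 and Wnt3a (lower). The study called differentially methylated loci in methylKit and not promoter means, so the measures are unlike.

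The label of the cells was set against promoters of cell type markers, of which few were in kept bins. The 12 HSC and stem cell markers had a median of 3.39% in 0x and 3.47% in 4x. The B cell markers (3 promoters) were at 38.4 and 34.8%, the T cell markers (3) at 23.5 and 29.9% and the myeloid markers (3) at 48.3 and 66.4%. The myeloid medians are those of Mpo, at 43.7, 82.2, 36.7 and 30.6% in 0x and 98.9, 46.7, 94.4 and 25.8% in 4x. Cd14 and Csf3r, the other myeloid markers, differed by 1.56 and -5.18 points. The erythroid markers (2) were at 12.99 and 7.54% and the megakaryocyte markers (2) at 19.8 and 16.99%. Every B cell, T cell, myeloid, erythroid and megakaryocyte promoter had overlapping groups. The mean over 4 stroma and endothelium promoters ran from 5.18 to 13.1% in 0x and from 20.5 to 33.7% in 4x and did not overlap. Of these Col1a1 differed by 51.9 points, Pdgfrb by 16.9, Col1a2 by 1.73 and Kdr by 1.81. Col1a1, with a single bin already named above for its large difference, was the only one of them whose groups did not overlap. It did not pass (adjusted p = 0.133 from limma). Pdgfrb was at 46.8% in 0x 01 and at 5.34% in 4x 05. Whether a change in the cells sorted has a part in the differences between 4x and 0x was not tested.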

How the data were processed

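DNA methylation of sorted HSCs was measured by RRBS in 20 samples, of which the 4 of 4x and the 4 of 0x were compared. Per the submitters' processing notes and the study's methods, trimming was done by the authors in Trim Galore 0.4.3, alignment against mm10 in Bismark 0.23.1 and further analysis in methylKit 1.22.0. They deposited 1 methylation level in percent per 100 bp bin and sample, formed from methylated and unmethylated sites above a coverage minimum, and gave bins without data the group's average level. Filled values lower the spread within a group and are not marked, so bins in which either group held 1 value throughout, or repeated a value other than 0 or 100, were left out. No read counts were given and no column was left unused.

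Percents were tested in limma 3.58.1 (R 4.3.3) on the 8 samples with no covariate and Benjamini-Hochberg adjustment over all bins, promoters or regions. A bin was called at an adjusted p under 0.05 and a difference of at least 10 points, and promoters (mean of the kept bins within 1 kb of a TSS) and regions (at least 3 kept bins with gaps of at most 500 bp) at an adjusted p under 0.05. Means were compared by a two-sided exact permutation test over the 70 divisions of 4 against 4 samples (Python 3.11.15, numpy 2.4.6, pandas 2.3.3). Errors printed with ± are SDs beside a group mean and SEs beside a difference, and SEs of bins, promoters and regions come from the fit. Classes, genes and sequences come from RefSeq GRCm38.p6, the assembly of mm10, in which all 1201951 bins lay inside the chromosomes. The scripts were tested on simulated data.

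Named were the called bins and promoters, the 8 promoters with the largest difference in each direction whose groups did not overlap, the regions with the largest differences or the lowest p, the genes the study names, and list promoters at an unadjusted p under 0.05. A few genes within these rules are not reported here. Members, gene lists and tests were chosen with earlier results of these data known, and list bins and overlapping list promoters were named after their values were seen. The alternatives were other bin filters, chromosome X, a log2 ratio of the percents, a variance trend, a spread shared by all 4 groups, the label series as a block, other windows and minimums, and each sample left out in turn.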

Additional observations from a re-analysis of the deposited data

Results flagged for a closer look

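A sample was set apart when its gap to the nearest of the other samples of its group, divided by the group's range, exceeded Dixon's critical value for 4 samples, which chance exceeds in about 1 of 20 groups. The non-coding exon mean of 4x 19 was 65.2%, below the group median of 66.5%. At the Ptges promoter, and at that of Gm52550 with the same bins, 4x 05 was at 40.7% against a median of 31.04%. Over all bins of chromosome X, 4x 05 was at 81.3% against 82.5%. In 4 of the 7 called bins the other 3 samples of 0x held exactly 0 or 100%, so that any other value stood apart. These values were 3.12% in 0x 14 at the bin of Ptges and Gm52550, 98.8% in 0x 13 near Eif3g, 91.4% in 0x 13 at Itpkc and 95.7% in 0x 01 near Twist2.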

How the results depend on the processing

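The called bins and promoters kept their direction in all alternatives in which they could be fitted, but their number depended on the bins admitted and on the model. With all deposited bins, filled ones included, 68330 bins, 3319 promoters, 18881 regions and 5 genomic classes passed. With repeated values allowed, 341 bins, 18 promoters, 1 region and 5 classes passed. With a spread shared by all 4 groups, 169 bins, 15 promoters and 1 region passed, but not the bins near Eif3g, Twist2, Itpkc and Ptges nor the promoters of Ptges, Gm52550 and Gm6994. On a log2 ratio of the percents and with a variance trend in limma, 0 bins and 0 promoters passed, and in bins without repeated values in all 4 groups 0 promoters passed. With at least 3 bins per promoter 1 passed. Leaving out 1 sample gave 5 to 25 bins, 0 to 4 promoters, 0 to 1 regions and 0 to 5 classes.

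The difference in mean methylation was 0.480 points over all deposited autosomal bins (exact permutation, p = 0.0286), 0.864 points in bins without repeated values in all 4 groups, 1.29 with chromosome X and 2.13 in bins of 20 to 80% in 2x and 10x, with exact permutation p of 0.0857, 0.0571 and 0.0857. It ran from 1.13 to 1.72 points when 1 sample was left out. The promoter class differed by 0.258 points over all deposited bins, turned to -0.0766 points with chromosome X and ran from -0.083 to 0.157 with 1 sample left out.

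Single promoters also turned, none of which passed in the kept bins. With all deposited bins, filled ones included, they were Bcl6 (-1.05 points), Eif4ebp1 (4.63), Grb2 (4.36), Il3 (29.2), Klf4 (0.648), Lyl1 (1.95) and Nos2 (-18.0). In that setting Pou5f1 (-0.933), Pparg (-1.62), Rara (1.54), Uhrf1 (3.64), Wnt1 (-1.92), Wnt10b (1.86) and Wnt7a (-8.14) turned too. Of these, Grb2, Il3, Nos2 and Wnt7a passed there, where filled values lower the spread (limma, adjusted p = 0.0495, 0.0338, 0.00241 and 3.58e-05). With repeated values allowed they were Cdkn1b (-4.10), Rara (1.10) and Wnt7a (-2.80). In bins without repeated values in all 4 groups they were Bcl6 (-0.171), Cdkn2a (-1.56), Itga3 (1.28), Rara (0.983), Runx1 (2.09) and Wnt5a (-2.79). With a 500 bp window they were Bcl6 (-0.632), Klf4 (0.930), Stat5a (-1.44) and Suz12 (0.244). With 1 sample left out the differences ran from -0.984 to 1.31 points at Bcl6, -1.24 to 0.979 at Cdkn1b, -0.0244 to 1.45 at Ezh2, -2.31 to 1.21 at Grb2, -2.15 to 0.983 at Klf4, -1.35 to 10.9 at Pou5f1, -1.72 to 1.90 at Rara, -9.44 to 2.41 at Runx1, -2.27 to 6.58 at Stat5a, -1.98 to 1.51 at Wnt5a and -0.378 to 0.677 at Wnt7a.

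The cause of these changes was not tested. No paired analysis was possible because the groups share no replicate numbers. The label series as a block, an alternative to pairing, gave 5 bins, 3 promoters and 0 regions, without the bins near Gm41918, Ptges and Itpkc and the promoter of Gm6994. Depth is unknown, and filled values that do not recur within a group cannot be recognised.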
